A study of Mus musculus with 5 samples.

Results

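Lysosomal and proton pump transcripts were examined in haematopoietic stem cells (HSCs) through 37 genes, out of 55335 genes in the expression table. The genes were listed by name for their known function, with earlier results of these data known. They code for 8 lysosomal membrane proteins, 6 cathepsins, 7 other hydrolases and luminal proteins, 8 subunits of the V1 sector, 4 subunits of the V0 sector and 2 accessory proteins of the vacuolar H+-ATPase (V-ATPase), and 2 transcription factors of the TFEB family. All 37 were present in the table, and all 37 passed the filter on low values.

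Transcript levels were measured in 5 libraries, 3 from wild-type mice and 2 from mice labelled RankCre-ki, all from bone marrow of mice at 3 weeks of age with C57BL/6J given as the strain. HSCs were sorted as lineage-negative cells with Kit, Sca-1 and CD150 and without CD48, and the library names end in 80 to 90, read here as the number of cells. RankCre-ki mice carry Cre in 1 copy of Rank, together with a floxed and a null allele of Csf1r, a receptor that macrophages of embryonic origin need to form. By the study's account the null allele was kept on a C3H/HeJ background, and the Cre acts in macrophages of embryonic origin rather than in HSCs, so the mutant mice lack embryonic macrophages and osteoclasts and have dense bone. The controls are labelled wild-type, and their alleles are not given further in the sources used here, so the effect of the missing cells and that of the alleles themselves cannot be told apart here. The comparison asks how HSCs that developed without these cells differ from control HSCs.

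The lysosome is the acidic compartment in which cells break down proteins, lipids, sugars and whole organelles. Its acid is made by the V-ATPase, whose V1 sector hydrolyses ATP in the cytosol and turns the V0 sector, which carries protons across the membrane. TFEB and TFE3 are transcription factors that switch on many lysosomal genes when they enter the nucleus, and they recognise a short DNA element with the E-box CACGTG at its centre. Adult HSCs are known for large numbers of slow-acting lysosomes, which have been linked to quiescence.

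The libraries differed in ways that touch every value below. Values are TPM, the length-corrected share of a gene in its library, so the sequencing depth is unknown, and a smaller number of cells of a type and less RNA per cell cannot be told apart. At least 1 TPM was found for 9021 to 11084 genes (wild-type) and for 12801 and 16386 genes (RankCre-ki). The library names form 2 series, of which series 1 holds wild-type replicate 1 and RankCre-ki replicate 2. The latter was labelled female, but its 4 Y-linked genes Ddx3y, Eif2s3y, Kdm5d and Uty summed to 105 TPM and its Xist was 0.0229 TPM, close to the 76.1 and 0.0273 TPM of wild-type replicate 1, the only library labelled male. Part of the results are therefore also given without RankCre-ki replicate 2. The HSC list had 9 to 11 of its 11 markers at 1 TPM or more in every library.

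The E-box that TFEB and TFE3 bind was searched in RefSeq promoter windows of build GRCm38.p6, which run from 250 bases before to 50 bases after a gene's start and were given for 31 of the 37 genes. No window was used for Atp6v1b2, Atp6v1c1, Atp6v1g1, Atp6v1h, Ctsb and Npc1. CACGTG stood in a window of 10 of the 31 genes (32.3%), against 8.09% of all 27025 genes with a window, 11.5% of the tested genes with one and 23.7% of the other pathway genes with one. TCACGTGA, which contains CACGTG, stood in 7 of the 31 (22.6%), against 1.12% of all genes with a window and 2.22% of the 9477 tested genes with one. Both motifs are their own reverse complement, so 1 search covered both strands. Of the 97 other genes of the lysosomal pathway with a window, 6 held TCACGTGA (6.19%).

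The stretches with TCACGTGA are shown because these 7 genes include 3 of the 6 genes at an unadjusted p under 0.05 described below. The motif is in capitals, each stretch of 30 bases reads along the strand of its gene, and positions are in GRCm38.p6.
Mcoln1 (chr8:3500462-3500491, plus strand): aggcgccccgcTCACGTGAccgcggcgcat
Cln3 (chr7:126583340-126583369, minus strand): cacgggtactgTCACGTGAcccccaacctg
Ctsd (chr7:142387908-142387937, minus strand): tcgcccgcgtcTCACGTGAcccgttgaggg
Atp6v1a (chr16:44139373-44139402, minus strand): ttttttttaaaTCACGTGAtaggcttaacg
Atp6v0d1 (chr8:105566050-105566079, minus strand): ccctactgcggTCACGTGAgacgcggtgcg
Atp6v0e (chr17:26676387-26676416, plus strand): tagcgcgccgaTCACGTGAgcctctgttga
Ctsa, first match (chr2:164833749-164833778, plus strand): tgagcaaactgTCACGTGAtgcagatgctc
Ctsa, second match (chr2:164833766-164833795, plus strand): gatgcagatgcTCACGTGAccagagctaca

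The centre of the motif lay 128, 118, 95 and 42 bases before the start in Atp6v1a, Cln3, Ctsd and Mcoln1. It lay at the start in Atp6v0d1 and 6 bases after it in Atp6v0e, and Ctsa held the motif 9 bases before and 8 bases after. Lamp1 held 4 matches to CACGTG without the longer motif, at 58, 42, 25 and 12 bases before the start. Ctsl held 1 match 233 bases before the start and Atp6v0b held matches 33 and 15 bases before it. These matches are letters in a window and were not tested as binding sites.

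Together the 37 genes held 3641, 4115 and 4456 TPM (wild-type replicates 1 to 3) and 4974 and 3579 TPM (RankCre-ki replicates 1 and 2). The means were 4071 ± 409 TPM (SD, n = 3) and 4277 ± 986 TPM (SD, n = 2), and the RankCre-ki libraries were the highest and the lowest of the 5. The sum of TPM as deposited therefore did not separate the groups. With median-ratio scaling the sums were 4347, 4767 and 3723 (wild-type) against 3599 and 2689 (RankCre-ki), so both RankCre-ki libraries then lay below all wild-type libraries. With 3 against 2 libraries an exact two-sided permutation test cannot go below p = 0.2, so no such test was run on sums. The V-ATPase genes held more than the rest in 4 of the 5 libraries, with wild-type sums of 2376, 2628 and 2597 TPM and RankCre-ki sums of 2477 and 1909 TPM. The other 23 genes held 1265, 1487 and 1859 TPM against 2497 and 1670 TPM.

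The levels of the single genes spanned a wide range, as the plot of levels by library shows. Cd63, a tetraspanin of late endosomes and lysosomes, had the highest mean of all, 606 TPM, followed by the small V-ATPase subunits Atp6v0e at 484 TPM and Atp6v1f at 479 TPM. Tfe3 and Tfeb had the lowest means, 2.51 and 4.34 TPM, and Npc1, a lysosomal cholesterol exporter, came next at 5.36 TPM. TPM are per length, so these levels can be compared between genes.

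The 14 V-ATPase genes were at 1 TPM or more in every library, whereas of the other 23 genes 22, 18 and 19 reached 1 TPM in wild-type replicates 1 to 3, and 23 and 21 in RankCre-ki replicates 1 and 2. V-ATPase genes also differed less among the wild-type libraries. The median SD of log2(TPM + 1) over the 3 wild-type libraries was 0.34 for V-ATPase genes and 1.04 for the other 23, against 1.13 for all 13981 tested genes. The spread followed the level, with 0.37 for the 11 genes that averaged 100 TPM or more and 0.93 for the 26 below.

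**Figure D1:**
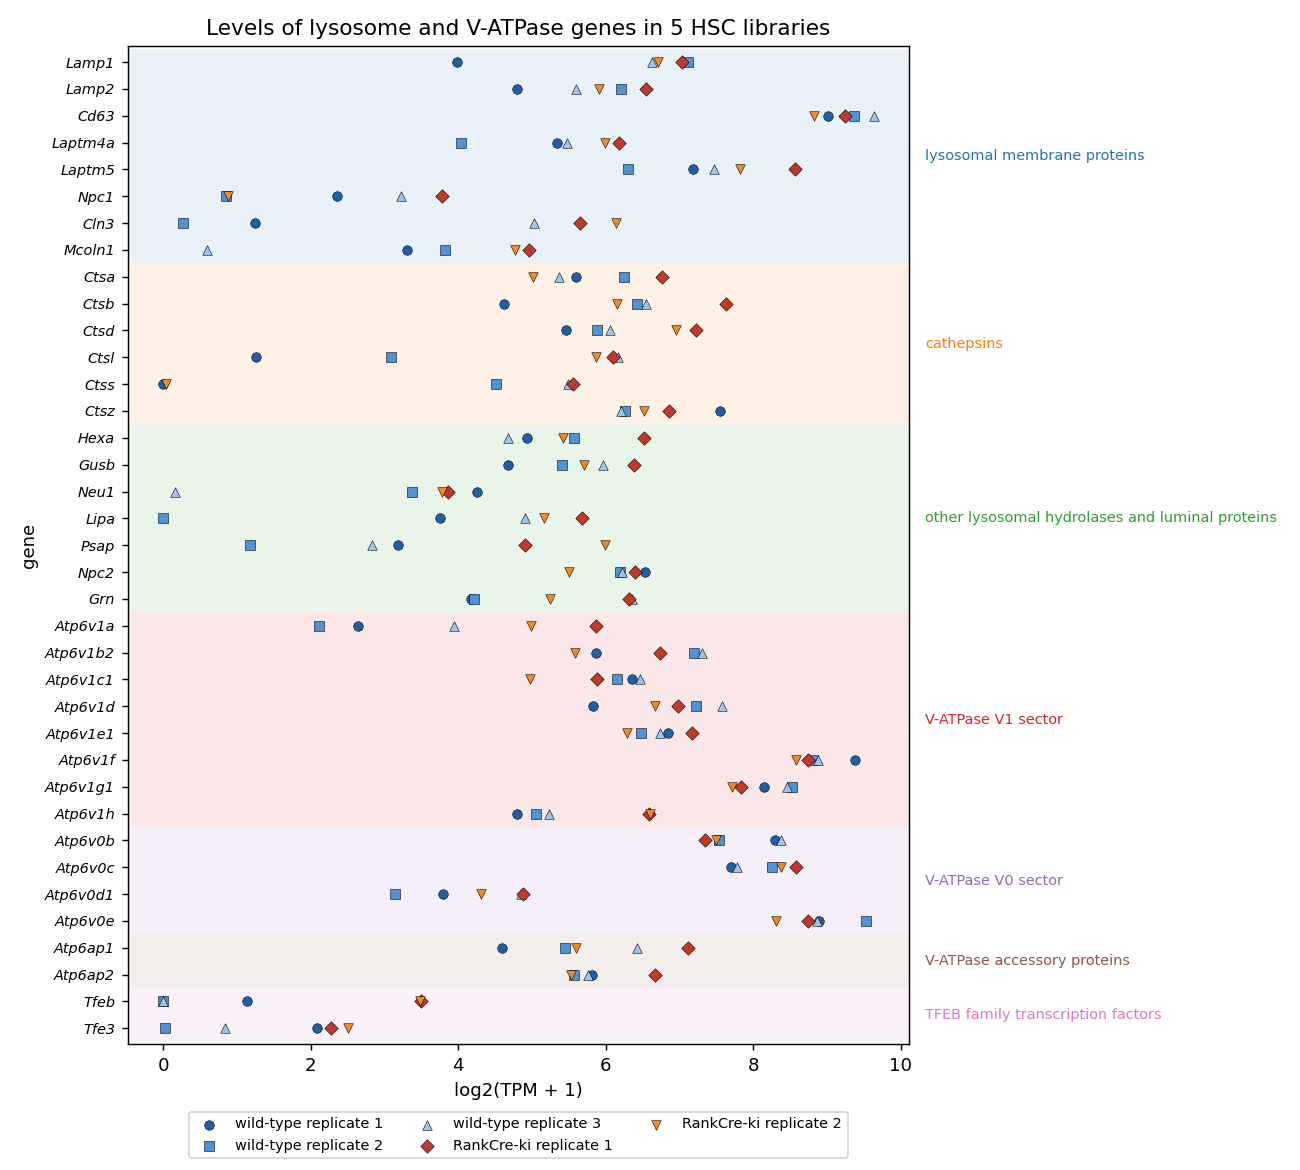
The level of each of the 37 genes on the horizontal axis as log2(TPM + 1), with 1 symbol per library and shading by role. Cd63, Atp6v0e and Atp6v1f lie to the right with the highest means, and the wild-type symbols of Tfeb, Cln3, Mcoln1, Lipa and Psap reach further to the left than both RankCre-ki symbols.

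The groups were compared with limma on log2(TPM + 1), on which scale every fold change below is given. No gene passed the threshold of an adjusted p of at most 0.1 with an absolute log2 fold change above 2, among the 37 genes (0 of 37) or among the 13981 genes tested (0%). The smallest adjusted p in the limma fit was 0.532 among the 37 genes and 0.521 among all tested genes. At an unadjusted limma p under 0.05 there were 6 of 37 genes (16.2%), against 6.87% of all tested genes. All 6 were higher in RankCre-ki (16.2%, against 6.34% of all tested genes in this direction) and 0 were lower, against 0.529% of all tested genes. These 6 were Tfeb, Atp6v1h, Psap, Atp6v1a, Ctsd and Cln3.

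The count at an unadjusted p under 0.05 changed with the libraries used, as did the share over all tested genes. It was 2 without wild-type replicate 2 (all tested genes 5.19%), 0 without RankCre-ki replicate 1 (2.39%) and 2 without RankCre-ki replicate 2 (1.25%). The log2 fold changes of the 6 genes stayed above 0. Without single wild-type libraries they ran from 2.76 to 5.14 for Cln3, from 2.44 to 3.45 for Psap and from 2.13 to 3.05 for Atp6v1a. In the same settings they ran from 2.93 to 3.49 for Tfeb, from 1.45 to 1.67 for Atp6v1h and from 1.13 to 1.42 for Ctsd. Without RankCre-ki replicate 1 and without RankCre-ki replicate 2 they were 3.11 and 3.12 for Tfeb, 1.57 and 1.57 for Atp6v1h, 3.59 and 2.51 for Psap, 2.09 and 2.97 for Atp6v1a, 1.15 and 1.43 for Ctsd, and 3.97 and 3.47 for Cln3. With TPM divided by median-ratio size factors, there were 3 higher (Tfeb, Psap and Cln3) and 4 lower (Atp6v1c1, Atp6v1g1, Atp6v0b and Atp6v0e). Over all tested genes, 886 of 960 genes at this p were higher on the TPM as deposited and 637 of 967 with that scaling.

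A shift of the whole table bears on these directions. The median log2 fold change of all tested genes was 0.52, and 72.3% of all tested genes had a value above 0, so a value above 0 was the common case. Of the 37 genes, 27 (73.0%) lay above 0, with a median of 0.69, which is 0.18 above that of all tested genes. The median level of the 37 genes, as log2(TPM + 1), minus that of all tested genes had an SD of 0.34 over the 3 wild-type libraries. That SD is of levels, so it does not measure the spread of the difference of median fold changes. The difference of median fold changes ran from -0.25 without RankCre-ki replicate 1 to 0.53 without RankCre-ki replicate 2, so its sign depended on the libraries.

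The order of the 2 groups of libraries was also read gene by gene. In 12 of 37 genes (32.4%) the lower RankCre-ki library exceeded the highest wild-type library, against 18.8% of all tested genes, and in 5 of 37 (13.5%) both lay below, against 3.71%. The 12 were Laptm4a, Laptm5, Cln3, Mcoln1, Ctsd, Lipa, Psap, Atp6v1a, Atp6v1h, Atp6v0c, Tfeb and Tfe3. The 5 were Atp6v1c1, Atp6v1f, Atp6v1g1, Atp6v0b and Atp6v0e, and all 5 are V-ATPase subunits. With median-ratio scaling 8 genes lay above, against 12.2% of all tested genes, without Laptm4a, Laptm5, Atp6v0c and Tfe3. In that setting 7 lay below, against 8.88%, with all 5 of these subunits. After quantile normalization 11 lay above, against 11.5%, and 4 below, against 11.7%, without Atp6v0b, so the share below was then near that of all tested genes. Without RankCre-ki replicate 2 they were 23 above, against 33.8% of all tested genes, and 5 below, against 7.60%. Without RankCre-ki replicate 1, 12 genes (32.4%) lay above, against 32.6% of all tested genes, so the share above was then near that of all tested genes. In that setting 11 lay below, against 12.1%, and without wild-type replicate 1 there were 8 below, against 12.3%.

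**Figure D2:**
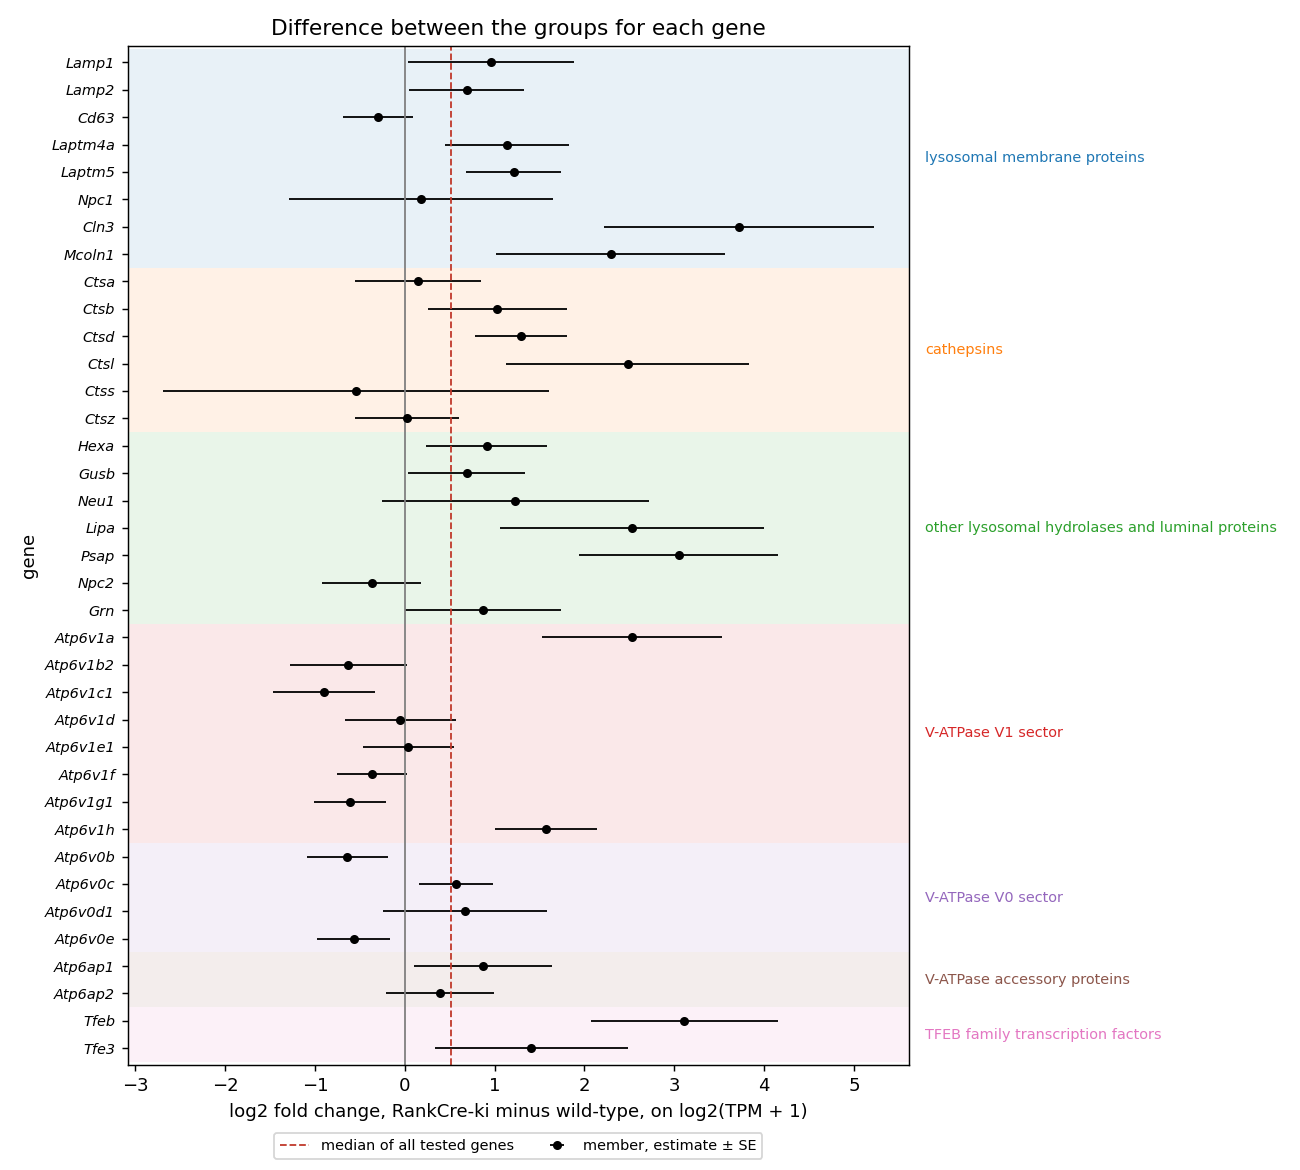
The log2 fold change of each gene, RankCre-ki minus wild-type, with bars of 1 SE, and a dashed line at the median of all tested genes, 0.52. Most lysosomal genes lie to the right of 0, with Cln3, Tfeb and Psap furthest at 3.72, 3.11 and 3.05, while 5 of the 8 V1 subunits lie to the left of 0.

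Tfeb (ENSMUSG00000023990, chromosome 17, 47737030 to 47792419, GRCm38), a main activator of lysosomal genes, had listed values of 1.19, 0 and 0 TPM (wild-type replicates 1 to 3) against 10.3 and 10.2 TPM (RankCre-ki replicates 1 and 2). The RankCre-ki libraries were close to each other and above all wild-type libraries. This gave a log2 fold change of 3.11 ± 1.04 (SE), unadjusted p of 0.0174 and adjusted p of 0.532 by limma. Since 2 wild-type values are 0, this value depends on the pseudocount, and was 5.46 with a pseudocount of 0.1.

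Tfe3, its close relative, had wild-type values of 3.25, 0.0141 and 0.790 TPM and RankCre-ki values of 3.85 and 4.66 TPM. The groups did not overlap, but wild-type replicate 1 came close to the RankCre-ki libraries. The difference on the log2 scale was 1.41 ± 1.07 (SE, limma, adjusted p = 0.916), and it was 0.03 after quantile normalization.

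Mcoln1 codes for TRPML1, the calcium channel of the lysosomal membrane. It had wild-type values of 8.85, 13.1 and 0.504 TPM and RankCre-ki values of 30.1 and 26.2 TPM. Both RankCre-ki values lay above the highest wild-type value, and wild-type replicate 3 stood far below the rest. For this gene the log2 fold change was 2.29 ± 1.28 (SE, limma, adjusted p = 0.881), and without wild-type replicate 3, the lowest library, it was 1.30.

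Of the 8 lysosomal membrane proteins, 7 had a log2 fold change above 0 and 1 below, with a median of 1.05, which is 0.53 above all tested genes. Cln3 had wild-type values of 1.36, 0.207 and 31.7 TPM and RankCre-ki values of 49.1 and 69.8 TPM. The gene (ENSMUSG00000030720, chromosome 7, 126571207 to 126585817) codes for battenin, which is lost in juvenile Batten disease. Wild-type replicate 3 was nearer to RankCre-ki replicate 1 than to the other wild-type libraries, and the groups did not overlap. Its log2 fold change was 3.72 ± 1.5 (SE), unadjusted p of 0.0382 and adjusted p of 0.668 by limma.

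Laptm5 codes for a lysosomal membrane protein of blood cells. It had wild-type values of 144, 77.9 and 176 TPM and RankCre-ki values of 378 and 225 TPM and a log2 fold change of 1.21 ± 0.53 (SE, limma, adjusted p = 0.725). Its relative Laptm4a had 39.4, 15.4 and 43.3 TPM (wild-type) against 71.6 and 62.3 TPM (RankCre-ki), with a log2 fold change of 1.14 ± 0.69 (SE, limma, adjusted p = 0.881). Neither gene overlapped between the groups, and wild-type replicate 2 was the lowest library for both.

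Cd63 had wild-type values of 518, 658 and 793 TPM and RankCre-ki values of 608 and 451 TPM, and the groups overlapped. This gave a log2 fold change of -0.30 ± 0.39 (SE, limma, adjusted p = 0.982). Npc1 had 4.13, 0.811 and 8.36 TPM (wild-type) against 12.7 and 0.842 TPM (RankCre-ki), so that the 2 RankCre-ki libraries were the highest and nearly the lowest of the 5. Lamp1 and Lamp2, the most abundant proteins of the lysosomal membrane, had overlapping groups with log2 fold changes of 0.96 ± 0.92 and 0.69 ± 0.64 (SE). For Lamp1 this rested on wild-type replicate 1, at 14.8 TPM, since the other 4 libraries lay between 98.2 and 138 TPM.

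The 6 cathepsins had a median log2 fold change of 0.59, which is 0.08 above all tested genes, or -0.07 relative to them with median-ratio scaling. Of the 6, 5 lay above 0 and 1 below, and 3 and 3 with that scaling. Relative to all tested genes the median was -0.54 without RankCre-ki replicate 1 and 0.89 without RankCre-ki replicate 2. Ctsd (ENSMUSG00000007891, chromosome 7, 142375911 to 142388038), the main aspartic protease of the lysosome, had wild-type values of 43.2, 57.9 and 65.3 TPM and RankCre-ki values of 149 and 123 TPM. The means were 55.5 ± 11.2 TPM (SD, n = 3) and 136 ± 18.8 TPM (SD, n = 2), and the groups were well apart. The difference on the log2 scale was 1.29 ± 0.51 (SE), unadjusted p of 0.0356 and adjusted p of 0.646 by limma.

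Ctsz, an exopeptidase and the most abundant of the 6, had wild-type values of 186, 75.5 and 73.0 TPM and RankCre-ki values of 115 and 90.7 TPM and a log2 fold change of 0.02 ± 0.58 (SE, limma, adjusted p = 0.999). Ctss, a cysteine protease of antigen-presenting cells, had 0, 21.9 and 43.8 TPM (wild-type) against 46.1 and 0.0293 TPM (RankCre-ki). Ctss was thus near 0 in both libraries of name series 1 and above 20 TPM in all 3 libraries of series 2, regardless of genotype. Its log2 fold change was -0.54 ± 2.15 (SE, limma, adjusted p = 0.992), and turned to 0.34 with the name series as a block.

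The cysteine proteases Ctsl and Ctsb had overlapping groups. Ctsl had wild-type values of 1.4, 7.5 and 70.5 TPM and RankCre-ki values of 67.7 and 57.5 TPM and a log2 fold change of 2.48 ± 1.35 (SE, limma, adjusted p = 0.874). Its wild-type values thus held both the lowest and the highest of the 5. Ctsb and the carboxypeptidase Ctsa had log2 fold changes of 1.03 ± 0.77 and 0.15 ± 0.70 (SE), and for both RankCre-ki replicate 1 was the highest library.

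Of the 7 other hydrolases and luminal proteins, 6 had a log2 fold change above 0, with a median of 0.91, which is 0.40 above all tested genes. Relative to all tested genes the median was -0.24 without RankCre-ki replicate 1 and 0.70 without RankCre-ki replicate 2. Psap (ENSMUSG00000004207, chromosome 10, 60277627 to 60302597) codes for prosaposin, the precursor of the saposins that present sphingolipids to their hydrolases. It had wild-type values of 8.10, 1.26 and 6.08 TPM and RankCre-ki values of 29 and 62.3 TPM. The lower RankCre-ki library was well above the highest wild-type library. For this gene the log2 fold change was 3.05 ± 1.11 (SE), unadjusted p of 0.0252 and adjusted p of 0.575 by limma.

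Lipa, the lysosomal acid lipase, had wild-type values of 12.5, 0 and 28.9 TPM and RankCre-ki values of 50 and 34.8 TPM. The groups did not overlap, although wild-type replicate 3 came close to RankCre-ki replicate 2. Its log2 fold change was 2.53 ± 1.47 (SE, limma, adjusted p = 0.881), and was 1.09 without wild-type replicate 2, the library at 0.

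Npc2, a luminal cholesterol carrier and the most abundant of these 7 genes, had 91.5, 72.0 and 73.3 TPM (wild-type) against 83.1 and 44.1 TPM (RankCre-ki), and the groups overlapped. Its log2 fold change was -0.37 ± 0.55 (SE, limma, adjusted p = 0.983). Neu1, a sialidase and the lowest of them, had 18, 9.31 and 0.114 TPM (wild-type) against 13.5 and 12.7 TPM (RankCre-ki), where again the wild-type libraries held both ends. Hexa and Gusb, which cleave hexosamines and glucuronides, and Grn, the precursor of the granulins, had overlapping groups and log2 fold changes of 0.91 ± 0.67, 0.69 ± 0.65 and 0.87 ± 0.87 (SE).

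The 8 subunits of the V1 sector did not share a direction. Atp6v1a and Atp6v1h were among the 6 genes with an unadjusted p under 0.05, whereas Atp6v1c1, Atp6v1f and Atp6v1g1 had both RankCre-ki libraries below all wild-type libraries. For the sector the median log2 fold change was -0.21, or 0.73 below all tested genes. It stayed below that of all tested genes under each scaling, by 0.87 with median-ratio factors, by 0.80 without mitochondrially encoded genes and by 0.12 after quantile normalization.

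Atp6v1a (ENSMUSG00000052459, chromosome 16, 44085402 to 44139705) codes for the catalytic subunit that hydrolyses ATP. It had wild-type values of 5.24, 3.32 and 14.4 TPM and RankCre-ki values of 57.4 and 30.7 TPM, so both RankCre-ki libraries were above all wild-type libraries. This gave a log2 fold change of 2.53 ± 1.0 (SE), unadjusted p of 0.0355 and adjusted p of 0.645 by limma.

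Atp6v1h (ENSMUSG00000033793, chromosome 1, 5070018 to 5162529), a regulatory subunit that couples V1 to V0, had wild-type values of 26.7, 32.2 and 36.5 TPM and RankCre-ki values of 95.3 and 95.9 TPM. The means were 31.8 ± 4.92 TPM (SD, n = 3) and 95.6 ± 0.399 TPM (SD, n = 2), and no other library came near the RankCre-ki values. The difference on the log2 scale was 1.57 ± 0.57 (SE), unadjusted p of 0.0242 and adjusted p of 0.574 by limma. It was 1.57 without either RankCre-ki library and between 1.07 and 1.67 under the other alternatives.

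Atp6v1f, a small subunit of the rotor and the most abundant of the sector, had 666, 450 and 471 TPM (wild-type) against 427 and 380 TPM (RankCre-ki), with a log2 fold change of -0.37 ± 0.39 (SE, limma, adjusted p = 0.952). The gap between the groups was small beside the spread of the wild-type libraries. The values of Atp6v1g1 and Atp6v1c1, parts of the stalks that hold V1 in place, are given because their groups did not overlap, which was seen first. Atp6v1g1 had 283, 367 and 352 TPM (wild-type) against 227 and 209 TPM (RankCre-ki), with a log2 fold change of -0.61 ± 0.40 (SE, limma, adjusted p = 0.889). Atp6v1c1 had 81.0, 70.1 and 87.0 TPM (wild-type) against 58.1 and 30.3 TPM (RankCre-ki), with a log2 fold change of -0.90 ± 0.57 (SE, limma, adjusted p = 0.887). None of these 3 genes passed an unadjusted p of 0.05 on the TPM as deposited.

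The nucleotide-binding subunit Atp6v1b2, which alternates with Atp6v1a in the V1 head, had wild-type values of 57.5, 146 and 157 TPM and RankCre-ki values of 106 and 47.1 TPM. It did not share the direction of Atp6v1a, with a log2 fold change of -0.63 ± 0.65 (SE, limma, adjusted p = 0.951) and overlapping groups. In every library Atp6v1b2 was the higher of the pair. The rotor subunit Atp6v1d and the stalk subunit Atp6v1e1 had log2 fold changes of -0.05 ± 0.62 and 0.04 ± 0.51 (SE) and overlapping groups.

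The V0 sector was divided as well, with 2 of its 4 genes above 0 and 2 below. Atp6v0e, a small membrane subunit and the highest of the sector, had wild-type values of 474, 738 and 466 TPM and RankCre-ki values of 427 and 315 TPM and a log2 fold change of -0.57 ± 0.41 (SE, limma, adjusted p = 0.907). Atp6v0b, a proteolipid of the proton-carrying ring, had 314, 184 and 332 TPM (wild-type) against 162 and 180 TPM (RankCre-ki), with a log2 fold change of -0.64 ± 0.45 (SE, limma, adjusted p = 0.905). Both genes had all wild-type libraries above the RankCre-ki libraries, for Atp6v0b by a margin of a few TPM.

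Atp6v0c, the main proteolipid of the same ring, had the opposite order. It had wild-type values of 206, 305 and 218 TPM and RankCre-ki values of 380 and 331 TPM and a log2 fold change of 0.57 ± 0.41 (SE, limma, adjusted p = 0.910). That value is 0.05 above the median of all tested genes. With median-ratio scaling the log2 fold change was 0.06, below the median of 0.16 that all tested genes had in that setting. The values of Atp6v0b and Atp6v0c were chosen for display after they were seen. Atp6v0d1, which joins the ring to the central rotor and is the lowest of the sector, had 12.9, 7.80 and 27.9 TPM (wild-type) against 28.4 and 18.9 TPM (RankCre-ki), with overlapping groups and a log2 fold change of 0.67 ± 0.91 (SE, limma, adjusted p = 0.982).

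The accessory proteins help to assemble the pump. Atp6ap1 had 23.1, 42.6 and 84.9 TPM (wild-type) against 138 and 47.4 TPM (RankCre-ki), with a log2 fold change of 0.87 ± 0.77 (SE, limma, adjusted p = 0.934). Atp6ap2, the prorenin receptor, had 55.4, 46.3 and 53.1 TPM (wild-type) against 101 and 45.0 TPM (RankCre-ki), with a log2 fold change of 0.39 ± 0.60 (SE, limma, adjusted p = 0.985). For both genes RankCre-ki replicate 1 was the highest library and RankCre-ki replicate 2 lay among or below the wild-type libraries.

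Set beside each other, the 14 V-ATPase genes had a median log2 fold change of 0.00, 0.52 below all tested genes, with 7 above 0 and 7 below. The 23 other genes had a median of 1.03, 0.51 above all tested genes, with 20 above 0 and 3 below. Relative to all tested genes the V-ATPase median was -0.67 with median-ratio scaling, -0.59 without mitochondrially encoded genes and 0.02 after quantile normalization, and that of the other genes was 0.37, 0.44 and 0.81. Without RankCre-ki replicate 1 these relative medians were -0.90 for the V-ATPase genes and 0.20 for the other genes. Without RankCre-ki replicate 2 they were -0.42 and 0.73. The difference between these 2 sets was not tested.

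The direction followed the level of a gene. Of the 11 genes that averaged 100 TPM or more, 4 had a log2 fold change above 0, with a median of -0.30, and of the 26 below 100 TPM, 23 did, with a median of 1.0. Across the 37 genes, which share the 5 libraries, the log2 fold change and the mean TPM had a Spearman rho of -0.63. All tested genes had medians of 0.03 at 100 TPM or more and 0.59 below, and a rho of -0.13. The rho with the length of the longest annotated transcript was 0.29 over the 37 genes and -0.01 over 13973 tested genes with a length.

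**Figure D3:**
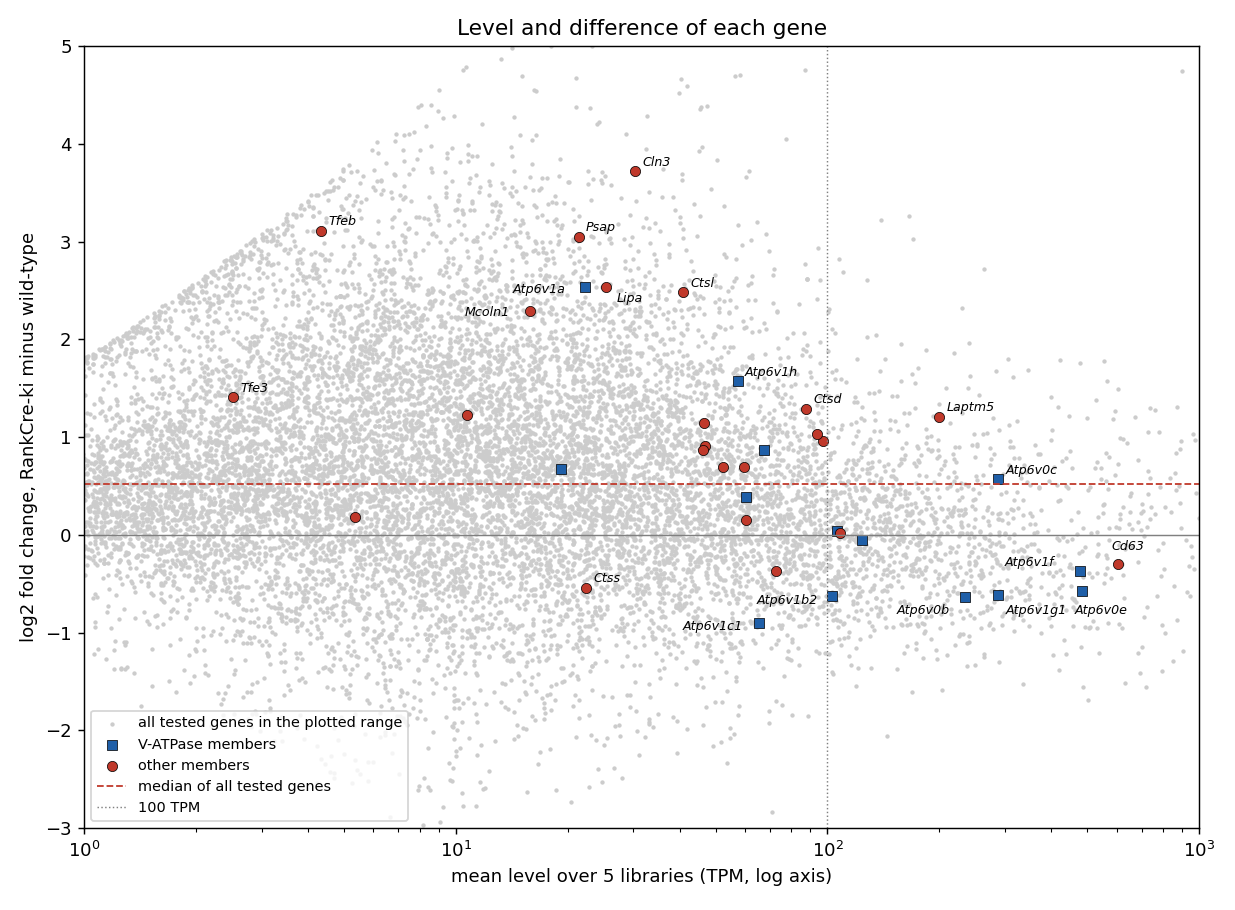
The mean level over 5 libraries on a log axis in TPM against the log2 fold change, for V-ATPase genes (squares), the other members (circles) and all tested genes in the plotted range (grey). Genes above 100 TPM, such as Atp6v0e, Atp6v1f and Cd63, lie mostly below 0, and Atp6v1a and Atp6v1h lie with the other members above the median of 0.52.

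The study's methods describe 2 tagmentation protocols, with 1 mutant and 1 control library made by the first and 1 mutant and 2 control libraries by the second, which are also the sizes of the 2 name series. Which library had which protocol is not given in the sources used here. In series 1, RankCre-ki replicate 2 was set against wild-type replicate 1, and in series 2, RankCre-ki replicate 1 against the mean of wild-type replicates 2 and 3. Of the 37 genes, 22 (59.5%) were higher in RankCre-ki in both series, against 44.5% of all tested genes, and 7 (18.9%) were lower in both, against 12.9%. The 7 were Cd63, Atp6v1b2, Atp6v1c1, Atp6v1f, Atp6v1g1, Atp6v0b and Atp6v0e, of which 6 are V-ATPase subunits.

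All 6 genes at an unadjusted p under 0.05 were higher in both series. Tfeb was higher by 2.36 in series 1 and by 3.50 in series 2, Psap by 2.80 and 2.91, Atp6v1a by 2.35 and 2.84, and Atp6v1h by 1.81 and 1.45. Ctsd was higher by 1.49 and 1.27, and Cln3 by 4.91 and 2.99. The medians of the 37 genes were 0.64 and 1.01 in the 2 series, against 0.53 and 0.40 for all tested genes. Each series holds 1 RankCre-ki library, so these values have no error and were not tested.

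**Figure D4:**
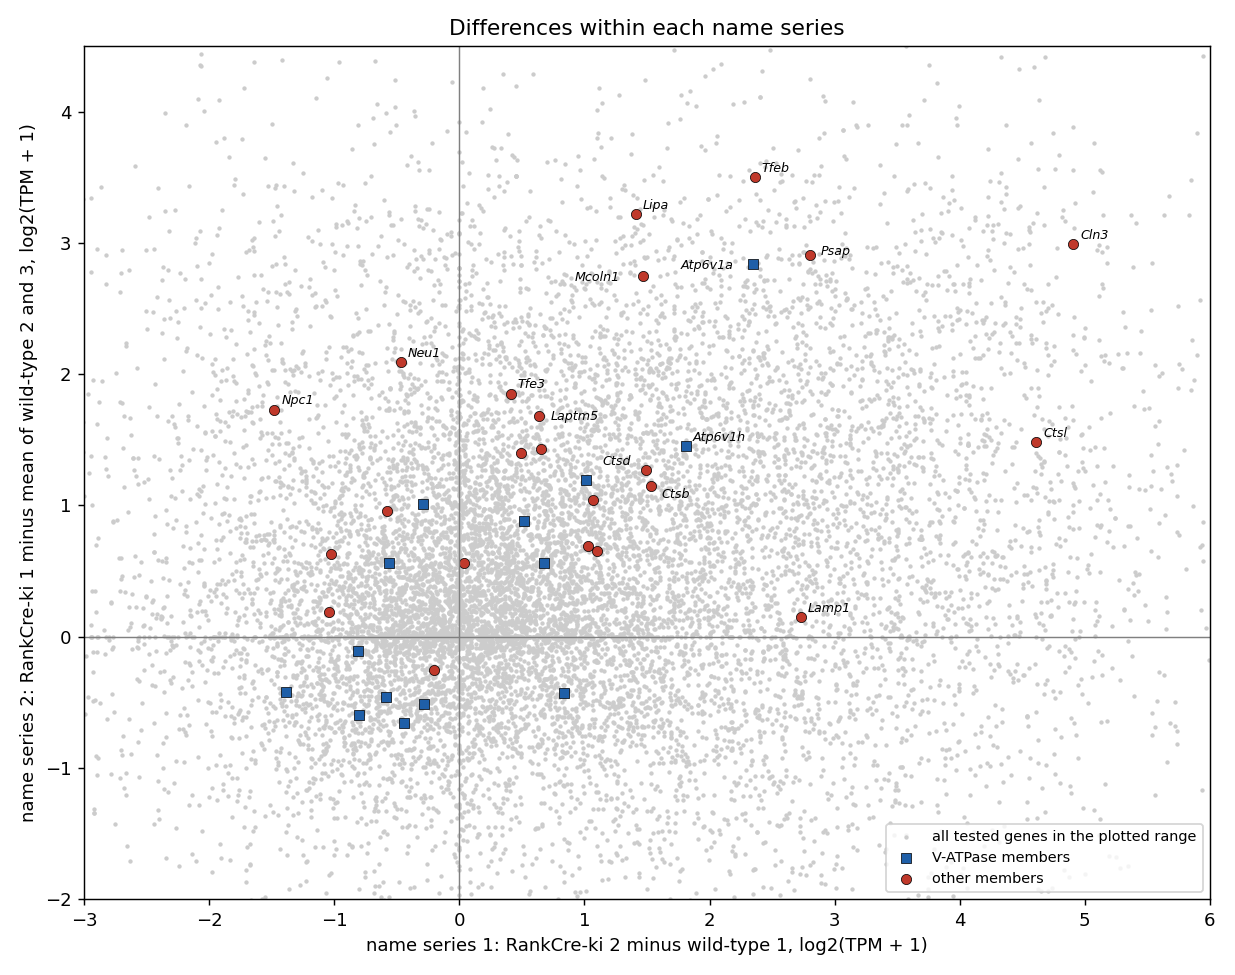
The difference of log2(TPM + 1) within name series 1 (horizontal) and within name series 2 (vertical) for V-ATPase genes (squares), the other members (circles) and all tested genes in the plotted range (grey). The upper right corner holds 22 of the 37 genes, with Cln3, Psap, Tfeb and Atp6v1a far out, and the lower left corner holds 7, of which 6 are V-ATPase genes.

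The genes with TCACGTGA in the promoter window were not alike in their differences. Their log2 fold changes ran from -0.57 (Atp6v0e) to 3.72 (Cln3) with a median of 1.29, and 4 of the 7 (Mcoln1, Cln3, Ctsd and Atp6v1a) had both RankCre-ki libraries above all wild-type libraries, against 18.8% of all tested genes. The 24 genes with a window and no such match had a median of 0.78, a range from -0.64 to 3.11, and 7 genes with this order. These values are a description, without a test.

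Other genes of the same pathway were read from lists chosen by function, 122 genes of which 107 could be tested. As with the 37 genes, 0 of 107 passed the threshold. At an unadjusted p under 0.05 there were 8 higher (7.48%, against 6.34% of all tested genes) and 1 lower (0.935%, against 0.529%). Both RankCre-ki libraries lay above the highest wild-type library in 29 (27.1%, against 18.8%) and below the lowest in 1 (0.935%, against 3.71%). Their median log2 fold change lay at 0.88, or 0.36 above all tested genes.

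Among 28 tested lysosomal enzymes and activators outside the 37 genes, 4 were higher and 0 lower at an unadjusted p under 0.05, against the same 6.34% and 0.529% of all tested genes. Tpp1, a peptidase of the lysosome, had the smallest p of the pathway. It had wild-type values of 2.65, 1.74 and 0.931 TPM and RankCre-ki values of 57.1 and 52.1 TPM, far apart and with little spread within each group. For this gene the log2 fold change was 4.37 ± 1.11 (SE), unadjusted p of 0.00442 and adjusted p of 0.521 by limma. Man2b1, a mannosidase, had 3.92, 1.67 and 27.6 TPM (wild-type) against 66.1 and 60.4 TPM (RankCre-ki). Gaa, the acid glucosidase, was chosen after its values were seen and also counts among the 4, with a log2 fold change of 3.26 ± 1.37 (SE).

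In the remaining lists the counts at an unadjusted p under 0.05 were small, and a count of 1 in a list of this size is near the 6.34% of all tested genes that were higher. Of 15 other lysosomal membrane proteins and transporters and of 5 other V-ATPase subunits, 0 were past it in either direction. Of 18 genes that deliver enzymes to the lysosome, 1 was higher, Ap1b1, a subunit of the clathrin adaptor AP-1, with 9.46, 0.0971 and 0.694 TPM (wild-type) against 31.3 and 21.0 TPM (RankCre-ki). Of 20 genes of mTORC1 at the lysosome and regulators of TFEB, 1 was higher, Tsc1, an inhibitor of mTORC1, with 0.191, 0 and 1.6 TPM (wild-type) against 10.9 and 6.38 TPM (RankCre-ki). Each of these 2 genes had both RankCre-ki libraries above all wild-type libraries.

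Autophagy delivers cytoplasm to the lysosome. Of its 21 genes, 2 were higher and 1 lower at an unadjusted limma p under 0.05, against 6.34% and 0.529% of all tested genes. The lower gene was Map1lc3b, which coats the autophagosome, with wild-type values of 827, 1114 and 727 TPM and RankCre-ki values of 426 and 334 TPM and a log2 fold change of -1.21 ± 0.39 (SE, limma, adjusted p = 0.521). Sqstm1, the receptor p62 that binds this coat, had the opposite order, with 74.1, 15.4 and 118 TPM (wild-type) against 244 and 185 TPM (RankCre-ki). Optn, another such receptor, had a listed value of 0 in each wild-type library and RankCre-ki values of 3.78 and 33.6 TPM.

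Lysosomal genes are also strongly expressed in macrophages and osteoclasts, so the markers of these cells were read in the same libraries. Of 17 macrophage and monocyte markers, 3 to 5 reached 1 TPM in wild-type libraries, against 6 and 7 in RankCre-ki libraries. Over all genes the order was the same, with 9021 to 11084 at 1 TPM or more in wild-type libraries against 12801 and 16386. Adgre1, Marco and C1qc were listed at 0 in all 5 libraries, C1qa did not exceed 0.0356 TPM and Mrc1 did not exceed 0.421 TPM. The summed level was 237 to 323 TPM (wild-type) against 352 and 170 TPM (RankCre-ki), most of it Lyz2, and did not separate the groups. Cd68 had 0.362, 32.5 and 38.1 TPM (wild-type) against 12.8 and 46.4 TPM (RankCre-ki). C1qb had 11.8 TPM in wild-type replicate 2 and 5.65 TPM in RankCre-ki replicate 1. Csf1r had 2.39, 0 and 0.234 TPM (wild-type) against 17.5 and 6.46 TPM (RankCre-ki). Of 9 osteoclast markers, Mmp9 was listed at 0 in all libraries, Atp6v0d2, the V0 subunit of osteoclasts, did not exceed 0.0306 TPM, and the sums were 0.0232 to 19.5 TPM against 14.6 and 6.18 TPM. Acp5 had 14.8, 0 and 14.2 TPM (wild-type) against 12.7 and 0 TPM (RankCre-ki), and Ctsk had 4.73 TPM in RankCre-ki replicate 2.

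Summed markers of some other lineages separated the groups, but their single genes did not share a direction. The summed level of 10 neutrophil markers was 0 to 6.56 TPM (wild-type) against 11.4 and 27.8 TPM (RankCre-ki), with Elane, Cebpe, Ly6g and Fcnb listed at 0 in all 5. S100a8 was at most 0.0677 TPM (wild-type) against 8.31 and 12.9 TPM (RankCre-ki), and S100a9 was at 2.17 TPM in wild-type replicate 1 alone. The sum of 9 erythroid markers was 147 to 258 TPM against 322 and 899 TPM, with Slc4a1 at 0 in all 5. In RankCre-ki most of it was Hbb-bt, at 251 and 632 TPM. Hba-a1, Hba-a2 and Epor were highest in wild-type replicate 1, at 31.6, 68.2 and 41.1 TPM. The sums of 8 megakaryocyte markers (82.9 to 205 against 180 and 178 TPM), 11 lymphoid markers (38.7 to 147 against 74.0 and 53.0 TPM) and 11 stromal and endothelial markers (53.8 to 97.8 against 86.4 and 58.9 TPM) overlapped. The part of any of these in the lysosomal values was not tested.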

How the data were processed

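Poly(A) RNA of sorted HSCs was reverse transcribed with template switching, amplified and tagmented, per the labels and the study's methods. The deposited values are TPM per gene, made by the authors. The study's methods describe alignment to mm10 with gsnap, Ensembl splice sites and counting of uniquely mapped fragments with featureCounts. How the TPM were derived, and whether strand was used, is not given in the sources used here, so overlapping genes and near-identical copies may share signal. The submitters' processing notes name build mm10, bcl2fastq 2.20.0 and featureCounts 2.0.1. The 92 spike-in rows, at 0 throughout, were removed from 55427 rows.

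Genes that reached 1 TPM in 2 or more libraries (13981) were fitted with limma 3.58.1 (R 4.3.3; lmFit, eBayes with trend, two-sided) on log2(TPM + 1), which understates changes of low genes, without covariates and with Benjamini-Hochberg adjustment over all of them. TPM carry no depth, so no counting error can be given, and precision comes from the spread between libraries. The labels do not say that the libraries are from separate animals, so p-values measure the spread between these samples, which may be technical. Groups came from the treatment label and replicate numbers from the sample titles.

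The members, the pathway and marker lists and the naming rule were chosen with earlier results of these data known. Values per library are given for members with an unadjusted p under 0.05, for members whose groups did not overlap with an absolute log2 fold change above 1, for the highest and lowest member of each role, and for Tfeb, Tfe3 and Mcoln1. In each pathway list up to 3 genes with an unadjusted p under 0.05 are named. Some genes of the pathway and marker lists are not reported here by name. Members shown outside this rule are marked or are given to complete a role. Positions and transcript lengths are from GENCODE M21 (GRCm38, the build called mm10), and promoter windows are from RefSeq. The code was tested on simulated data.

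Alternatives were a pseudocount of 0.1, no filter, a filter of 5 TPM, median-ratio scaling, quantile normalization, removal of mitochondrially encoded genes, no trend, the replicate number or the name series as a block, other thresholds, and each library left out.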

Additional observations from a re-analysis of the deposited data

How the results depend on the processing

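Among the 37 genes, 0 passed the threshold under every alternative, and their smallest adjusted limma p ran from 0.232 (name series block) to 1. Over all tested genes the count was 0 except with the replicate block, where it was 1, and without single libraries, where it ran from 0 to 17 (17 without RankCre-ki replicate 1 and 8 without RankCre-ki replicate 2, where the remaining library was assumed to vary like the wild-type libraries). The number of members at an unadjusted limma p under 0.05 was 6, against 6.87% of all tested genes. It was 2 without wild-type replicate 2, against 5.19%, and 8 without wild-type replicate 3, against 11.8%. With the replicate block it was 4, against 4.04%. Same-numbered libraries deviated oppositely from their group means (correlations of -0.38 and -0.195 over genes), so the numbers did not join libraries with like deviations. The deviations of the 2 RankCre-ki libraries are mirror images, so each value also holds, with the opposite sign, for the other RankCre-ki library. No member passed the threshold with or without this block.

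The members' median minus that of all tested genes, 0.18, was 0.59 after quantile normalization, -0.16 with a pseudocount of 0.1, and ran from -0.25 to 0.53 without single libraries. The log2 ratio of their summed TPM, 0.07, was -0.44 with median-ratio scaling. Settings for the order of the groups were added after the data were seen. The members with both RankCre-ki libraries above all wild-type libraries, 12, ran from 12 to 23 without single libraries and were 8 with median-ratio scaling. Of all tested genes 18.8% lay above, 24.3% to 33.8% without single libraries and 12.2% with median-ratio scaling. The members below, 5, were 4 after quantile normalization and ran from 5 to 11 without single libraries. Of all tested genes 3.71% lay below, 11.7% after quantile normalization and 5.66% to 12.3% without single libraries. The cause of these changes was not tested.

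Of the 22 members followed under 14 alternatives, 17 kept their sign throughout. Npc1 turned to -0.15 with median-ratio scaling, -0.88 after quantile normalization and ran from -1.27 to 1.62 without single libraries (-0.47 without wild-type replicate 2). Ctss turned to 0.54 with the replicate block, 0.34 with the name series block and ran from -3.29 to 2.22 without single libraries (0.06 with wild-type replicate 2 left out). Ctsz turned to -0.48 with median-ratio scaling, -0.11 without mitochondrially encoded genes, -0.21 with the replicate block, -0.08 with the name series block and ran from -0.21 to 0.46 without single libraries (-0.19 without wild-type replicate 2). Npc2 ran from -0.82 to 0.08 (without RankCre-ki replicate 2), and Atp6ap2 was -0.11 with median-ratio scaling and ran from -0.19 (without RankCre-ki replicate 1) to 0.96.

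The limits are the 5 libraries, a group of 2, an unknown depth and low levels: Tfeb, Lipa and Ctss were listed at 0 in at least 1 library. Genotype, number of detected genes and the alleles of the mutant mice cannot be told apart.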

Other observations

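Pseudogenes named after the members held little signal. Atp6v0c-ps1 and Atp6v0c-ps2 did not exceed 0.138 and 0.272 TPM and Cd63-ps did not exceed 0.757 TPM in any library, against means of 288 TPM for Atp6v0c and 606 TPM for Cd63. Of the annotated genes that overlap a member on the other strand, Rmc1 at the Npc1 gene had 31.8, 45.4 and 31.3 TPM (wild-type) against 45.3 and 60.3 TPM (RankCre-ki), above Npc1 itself in each library. Nelfcd at Ctsz was listed at 0, 9.80 and 26.8 TPM against 52.1 and 20.1 TPM, and Apobr at Cln3 did not exceed 7.34 TPM.

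Mir7059, annotated inside Cln3 on the same strand, was listed at 12.8 TPM in RankCre-ki replicate 2 and at 0 in the other 4 libraries.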
